A study of Mus musculus with 8 samples.

Results

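The genes described here encode the working parts of the lysosome. They are 32 genes listed by name for their function: 9 peptidases, 8 glycosidases and lipid hydrolases, 3 soluble cofactors, 8 membrane proteins and 4 subunits of the proton pump. All 32 were found by symbol among the 53465 genes of the count table, and 30 had enough counts to be tested. Transcripts were counted by polyA RNA sequencing in Ba/F3, an established mouse pro-B cell line of C3H background whose growth depends on interleukin-3. The comparison is between parental cells with wild-type U2AF35 (libraries 1, 2 and 3) and cells transformed with U2AF35(S34F) (libraries 4, 5, 6, 7 and 8), and both groups share the line and strain. The U2af1 gene encodes U2AF35, a splicing protein that reads the end of an intron, and S34F is a mutation of it that recurs in cancer. The labels do not say whether libraries of a group were separate cultures or clones, so the p-values measure the spread between these libraries, which may be technical. The sources used here do not give the promoter that drove the introduced copy or whether the medium held interleukin-3.

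The lysosome is the acidic compartment in which cells break down proteins, sugars and lipids taken in from outside or delivered by autophagy. A proton pump of many subunits, the V-ATPase, acidifies its interior, and the hydrolases work at that low pH. Heavily glycosylated proteins such as LAMP1 line its membrane, and transporters and channels release the products. The transcription factors TFEB, TFE3 and MITF bind E-box elements near the starts of many of these genes and raise their transcription when they enter the nucleus.

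Between 36122062 (transformed 7) and 50305573 (parental 1) reads were counted per library, and a count of 0 allows a level of up to 0.0856 CPM in transformed 7, the shallowest library (3 counts; counting error only). CPM are counts per 1000000 counts of the library, scaled between libraries by TMM factors. U2af1 was at 85.3, 98.2 and 91.6 CPM in parental 1 to 3 and at 157, 144, 128, 92.0 and 132 CPM in transformed 4 to 8 (log2 fold change 0.51, SE 0.16, edgeR adjusted p = 0.108). Transformed 7 alone of its group was at the parental level, and gene counts do not separate the introduced copy from the endogenous one. Of 12 pro-B markers only Cd79a and Cd79b reached 1 CPM in any library, and Pax5, Ebf1, Rag1, Igll1 and Il7r stayed at or below 0.0440 CPM. Of 10 macrophage markers 3 reached 1 CPM (Adgre1, Cd14 and Fcgr1), while C1qa, C1qc and Marco had 0 counts in all 8 libraries. The summed macrophage markers ran from 232 to 334 CPM in parental and from 49.7 to 495 CPM in transformed libraries, highest in transformed 7, and Adgre1 alone made up 81.6% to 99.6% of the sum. Of 9 mast cell markers 4 reached 1 CPM and Kit had 0 counts, and their sum ran from 108 to 160 CPM in parental and from 27.4 to 398 CPM in transformed libraries, highest in transformed 4. Of 7 T cell markers only Lck reached 1 CPM, and 0 of 7 fibroblast markers did. In bulk libraries such as these, fewer cells of a type and less RNA per cell cannot be told apart.

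The sequences just upstream of these genes are shown because the TFEB family binds near the starts of many lysosome genes, and because Lamp1, Mcoln1 and Cd68 were among the members that fell. RefSeq promoter sequences (GRCm38.p6, from 250 bases before to 50 bases after a start site) were matched by symbol for 26 of the 32 members. The entries missing were Ctsh, Npc1, Asah1, Atp6v1b2, Ctsb and Atp6v1h. Sequences run 5′ to 3′ on the gene's strand, and capitals mark TCACGTG or its reverse complement CACGTGA, which overlap in TCACGTGA and share the E-box CACGTG. The whole windows of the 3 fallen members with an entry follow.
Lamp1, chr8:13158911-13159210, plus strand: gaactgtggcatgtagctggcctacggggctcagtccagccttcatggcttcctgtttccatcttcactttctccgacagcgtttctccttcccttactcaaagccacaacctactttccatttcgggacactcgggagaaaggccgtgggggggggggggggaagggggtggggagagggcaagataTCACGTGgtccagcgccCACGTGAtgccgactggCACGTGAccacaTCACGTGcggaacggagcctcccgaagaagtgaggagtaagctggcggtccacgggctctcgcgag
Mcoln1, chr8:3500269-3500568, plus strand: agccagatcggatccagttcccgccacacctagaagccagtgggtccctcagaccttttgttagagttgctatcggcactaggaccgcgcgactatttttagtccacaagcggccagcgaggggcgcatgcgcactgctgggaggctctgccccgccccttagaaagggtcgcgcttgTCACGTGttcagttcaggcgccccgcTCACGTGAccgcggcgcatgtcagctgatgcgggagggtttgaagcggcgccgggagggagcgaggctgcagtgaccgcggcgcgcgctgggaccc
Cd68, chr11:69666121-69666420, minus strand: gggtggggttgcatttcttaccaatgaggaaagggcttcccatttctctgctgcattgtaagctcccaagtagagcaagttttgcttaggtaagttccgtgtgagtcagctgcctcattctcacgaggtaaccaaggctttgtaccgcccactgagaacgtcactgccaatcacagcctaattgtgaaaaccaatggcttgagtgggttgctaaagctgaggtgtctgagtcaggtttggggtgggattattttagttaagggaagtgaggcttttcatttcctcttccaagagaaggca

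Lamp1 carried 4 such E-boxes, whose first bases lie 61, 45, 28 and 15 bases before the start site. Mcoln1 carried 2, at 71 and 45 bases before it. In Cd68 these letters were not in the window. The stretches around the E-box nearest to the start are shown for the other 6 members that carried the motif, among them 2 subunits of the proton pump.
Atp6v0d1, chr8:105566050-105566079, minus strand: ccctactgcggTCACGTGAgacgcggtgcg
Atp6v1a, chr16:44139373-44139402, minus strand: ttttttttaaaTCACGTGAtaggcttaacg
Ctsa, chr2:164833766-164833795, plus strand: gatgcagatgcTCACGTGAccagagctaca
Ctsd, chr7:142387908-142387937, minus strand: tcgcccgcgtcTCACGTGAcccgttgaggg
Gla, chrX:134601182-134601211, minus strand: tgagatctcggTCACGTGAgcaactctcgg
Gaa, chr11:119267811-119267840, plus strand: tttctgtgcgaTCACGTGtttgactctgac

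Read as a count, TCACGTG on either strand was in a promoter of 8 of the 26 members (30.8%) and of 4.29% of the 27025 genes in the promoter table. The longer TCACGTGA was in 6 of 26 (23.1%), against 1.12%, and the bare CACGTG in 9 of 26 (34.6%), against 8.09%. Ctsl, with CACGTG alone, was the ninth. Among 116 other lysosome genes, 93 had an entry and 22 of these (23.7%) held TCACGTG. The 27025 genes were not limited to those tested in these cells. A match of letters is a description and not a measured binding site.

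In the cells transformed with U2AF35(S34F), 4 members fell and 0 rose. The 4 were Asah1, the acid ceramidase; Lamp1, a major glycoprotein of the lysosomal membrane; Mcoln1, the calcium channel TRPML1; and Cd68, a LAMP-family glycoprotein. They fell by between 1.35-fold (Lamp1) and 1.65-fold (Asah1). Among the 30 tested members 4 lower calls are 13.3%, where 2.10% of all 17733 genes tested were called lower and 0.908% higher (edgeR quasi-likelihood test, adjusted p under 0.05 over all genes). Of the tested members 24 (80.0%) had a negative and 6 a positive log2 fold change, where 47.7% of all genes tested were negative. The members had a median of -0.18, and the median over all genes tested was 0.02. At an unadjusted p under 0.05 edgeR had 11 members lower and 3 higher, where 11.6% of all genes tested were lower and 10.6% higher at that p. DESeq2 called 7 lower and 1 higher (5.91% and 4.72% of all genes), and limma-voom called 5 lower and 0 higher (2.42% and 0.902%). Lane 6 held parental 1 and 3 and transformed 5 and 8, so a fit within lane 6 also left out transformed 4 and 7. With sequencing lane as a covariate edgeR called only Asah1 lower (0.445% of all genes lower and 0.0846% higher), and within lane 6 it called 12 lower and 1 higher (10.8% and 9.60%). Without transformed 4 it called 10 lower and 2 higher (9.26% and 6.25%), without transformed 7 10 lower and 0 higher (4.76% and 2.87%), and without both, a setting added after the data were seen, 17 lower and 3 higher (16.1% and 12.8%). The members and the question were chosen with earlier results of these data known, so these counts describe the list and do not test it.

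In 9 of the 30 tested members all 5 transformed libraries lay below all 3 parental ones, and in 0 they all lay above. Over all genes tested these shares were 9.69% and 8.06%. The 9 were Ctsa, Asah1, Mcoln1, Lipa, Cd68, Lamp1, Psap, Neu1 and Ctsd, and they include all 4 called members. The plot of their levels shows each library.

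**Figure D1:**
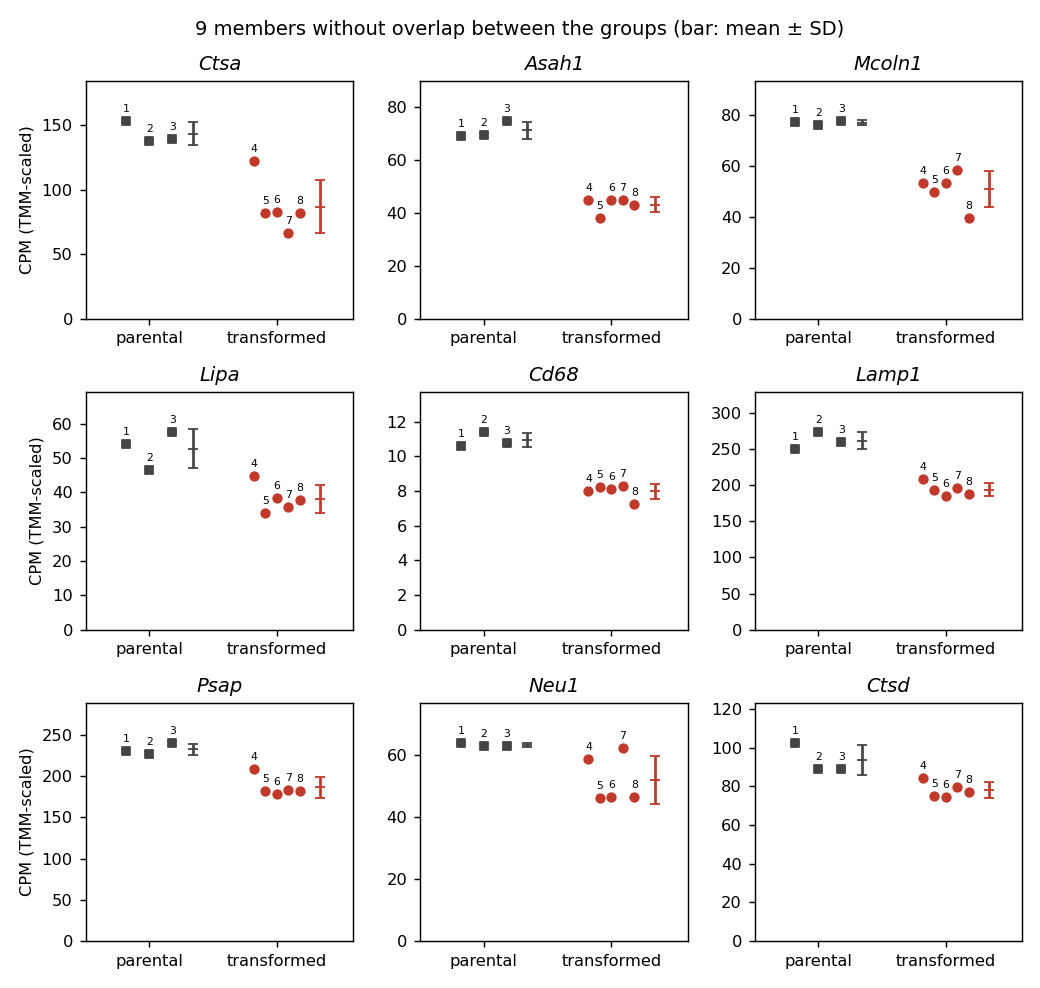
TMM-scaled CPM (vertical axes, linear from 0) of the 9 members whose groups did not overlap, with parental libraries as squares, transformed libraries as circles, the library number above each point and bars for the group means with their SD. Asah1 and Cd68 are tight within each group, transformed 4 is the highest transformed library for Ctsa, Lipa, Lamp1, Psap and Ctsd, and Neu1 in transformed 7 (62.2 CPM) lies just under the lowest parental value (62.6 CPM).

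Asah1 cleaves ceramide into sphingosine and a fatty acid (ENSMUSG00000031591, chromosome 8, 41340197 to 41374773, GRCm38, protein coding). It was at 69.1, 69.7 and 75.0 CPM in parental 1, 2 and 3, and at 44.8, 38.3, 44.99, 44.8 and 43.1 CPM in transformed 4 to 8. All transformed libraries were low, and the gap between the groups was wider than the range within either. The log2 fold change was -0.72 (SE 0.087, edgeR adjusted p = 0.00817). Within lane 6 it was -0.81 and within lane 7, which holds 1 parental library, -0.64. The exact permutation test gave p = 0.0179, unadjusted and 2-sided, the smallest that 3 against 5 libraries allow, and the same for Lamp1, Mcoln1 and Cd68. These 4 were picked by the fit on the same libraries and their groups did not overlap, so this p is not separate support. Asah1 kept the call with a lane covariate in edgeR (adjusted p = 0.0244) and lost it without parental 2 (adjusted p = 0.0543) and without parental 3 (adjusted p = 0.0653).

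The membrane proteins held the other 3 calls. Lamp1 (ENSMUSG00000031447, chromosome 8, 13159161 to 13175338, protein coding) was at 250.1, 274 and 260.0 CPM in parental and 208, 193, 185, 195 and 187 CPM in transformed 4 to 8. Every transformed library was lower than every parental one, with transformed 4 the nearest. Its log2 fold change was -0.43 (SE 0.076, edgeR adjusted p = 0.0281), with -0.41 within lane 6 and -0.49 within lane 7. Grtp1, on the opposite strand, shares 9.31% of the exon bases of Lamp1. Mcoln1 (ENSMUSG00000004567, chromosome 8, 3500457 to 3515232, protein coding), which releases calcium from the lysosome, was at 77.4, 76.2 and 77.9 CPM in parental and 53.4, 49.7, 53.5, 58.6 and 39.6 CPM in transformed libraries. The parental values lay within 2 CPM of each other, and transformed 8 was the lowest. Its log2 fold change was -0.60 (SE 0.12, edgeR adjusted p = 0.0386), with -0.79 and -0.47 within lanes 6 and 7. Cd68 (ENSMUSG00000018774, chromosome 11, 69664213 to 69666153, protein coding), a protein best known as a macrophage marker, was at 10.6, 11.4 and 10.8 CPM in parental and 7.996, 8.23, 8.14, 8.31 and 7.25 CPM in transformed libraries. Both groups were narrow, and the log2 fold change was -0.46 (SE 0.10, edgeR adjusted p = 0.0484), with -0.46 and -0.49 within lanes 6 and 7. The calls of Lamp1, Mcoln1 and Cd68 were lost in edgeR with a lane covariate (adjusted p = 0.0576, 0.0576 and 0.0868) and without parental 1, 2 or 3 or transformed 5, 6 or 8. Without these single libraries adjusted p ran from 0.0742 to 0.163 for Lamp1, from 0.0679 to 0.194 for Mcoln1 and from 0.104 to 0.223 for Cd68, whose call was also lost with no low-count filter (adjusted p = 0.101).

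The other 5 membrane proteins missed the threshold. Lamp2, the second large LAMP protein, was at 168, 144 and 159 CPM in parental and 141, 138, 158, 213 and 156 CPM in transformed libraries, with only transformed 7 above the parental range. Npc1, which exports cholesterol from the lysosome, was lowest in transformed 4 (41.9 CPM) and highest in transformed 7 (96.3 CPM), on either side of a parental range of 53.1 to 75.7 CPM. The log2 fold changes of Lamp2 (0.04, SE 0.15) and Npc1 (0.02, SE 0.24) took either sign under other settings. The tetraspanin Cd63 had -0.20 (SE 0.17), Laptm4a, a small transmembrane protein, -0.03 (SE 0.11) and Scarb2, the receptor that carries glucocerebrosidase to the lysosome, -0.06 (SE 0.11), and each took the other sign in lane 7. For the members of this paragraph edgeR adjusted p ran from 0.551 (Cd63) to 0.966 (Npc1).

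Among the peptidases edgeR called 0 of 7 tested. At an unadjusted p under 0.05 Ctsa, Ctsd and Tpp1 were lower and Ctss and Ctsc higher (11.6% and 10.6% of all genes). DESeq2 called Ctsa lower and Ctss higher (5.91% and 4.72% of all genes), and limma-voom called Ctsa lower (2.42%). Ctsa, the protective protein that also stabilises other hydrolases, was at 153, 138 and 139 CPM in parental and 122, 81.5, 82.4, 66.1 and 82.1 CPM in transformed libraries. Transformed 4 lay between the other transformed libraries and the parental ones. The log2 fold change of Ctsa was -0.72 (SE 0.17, edgeR adjusted p = 0.0563), not a call. Ctsa was called lower without transformed 4 (adjusted p = 0.00290), without transformed 7 (adjusted p = 0.0372) and in DESeq2 (adjusted p = 0.00391). Tpp1, which removes tripeptides from protein ends, had 168, 152 and 148 CPM in parental and 158, 113, 115, 104 and 111 CPM in transformed libraries (log2 fold change -0.38, SE 0.14, edgeR adjusted p = 0.152). Here transformed 4 was inside the parental range and the other 4 transformed libraries were below it. Ctsd, the main aspartic protease, was at 102, 89.0 and 88.9 CPM in parental and 84.1, 74.8, 74.5, 79.6 and 77.0 CPM in transformed libraries, so the groups lay apart by a small gap (log2 fold change -0.26, SE 0.085, edgeR adjusted p = 0.120). A predicted gene on the same strand shares 34.4% of the merged exon bases of Ctsd, so its count is uncertain. Genes on the opposite strand share 17.4% of the exon bases of Ctsa, and the sources used here do not give the strand setting.

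Ctss and Ctsc, cysteine proteases prominent in antigen-presenting and granule-bearing leukocytes, had the largest positive log2 fold changes of the 30 tested members. Ctss was nearly off in parental cells, at 0.899, 1.30 and 2.17 CPM, and in transformed 4, at 1.74 CPM. In transformed 5 to 8 it was at 14.3, 16.8, 40.0 and 17.7 CPM. The groups overlapped through transformed 4 alone, and edgeR did not call the log2 fold change of 3.64 (SE 0.89, adjusted p = 0.0654). It passed without transformed 4 (adjusted p = 0.00419), within lane 6, which also lacked transformed 4 (adjusted p = 0.00909), and in DESeq2 (adjusted p = 5.60e-04). It did not pass in limma-voom (adjusted p = 0.151). Ctsc, the activator of granule serine proteases, was at 152, 129 and 104 CPM in parental and 112, 174, 214, 289 and 193 CPM in transformed libraries (log2 fold change 0.62, SE 0.27, edgeR adjusted p = 0.219). Again transformed 4 was within the parental range and transformed 7 was the highest, and the call was made without transformed 4 (adjusted p = 0.0354). The macrophage marker Fcgr1 was at 0.888 CPM in transformed 4, 8.27 to 11.8 CPM in transformed 5, 6 and 8 and 89.5 CPM in transformed 7, and Adgre1, which carries most of the macrophage sum, was also lowest in transformed 4 (48.4 CPM) and highest in transformed 7 (404 CPM). Other markers of the list did not follow that order: Cd14 was highest in transformed 6 (2.99 CPM) and Csf1r stayed at or below 0.352 CPM. In parental 1 to 3 Fcgr1 was at 1.84, 0.599 and 1.80 CPM, below transformed 5 to 8, as Ctss was. Adgre1 was at 332, 256 and 230 CPM in parental 1 to 3 and at 176, 238 and 269 CPM in transformed 5, 6 and 8, so its groups overlapped. The part of these markers in the protease levels was not tested. Ctsz (-0.17, SE 0.14) and Ctsb (-0.01, SE 0.16) did not pass, and Ctsb took either sign. Ctsh and Ctsl were not tested: they had at most 3 and 6 counts in any library.

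Among the glycosidases and lipid hydrolases, Asah1 was the 1 of 8 called. Lipa, the acid lipase of lysosomal cholesterol esters, was at 53.9, 46.6 and 57.7 CPM in parental and 44.8, 33.9, 38.2, 35.9 and 37.7 CPM in transformed libraries (log2 fold change -0.47, SE 0.11, edgeR adjusted p = 0.0609), and DESeq2 called it lower. It lies on chromosome 19, where the median over 511 tested genes was -0.34 and 14.9% were called lower, against 2.10% of all genes tested. Neu1, the lysosomal sialidase, split the transformed libraries: 46.1, 46.5 and 46.5 CPM in transformed 5, 6 and 8, but 58.5 and 62.2 CPM in transformed 4 and 7, beside 62.6 to 63.8 CPM in the parental libraries (log2 fold change -0.28, SE 0.12, edgeR adjusted p = 0.222). Gla, which removes terminal galactose from glycolipids, was at 19.5 to 25.7 CPM in 4 transformed libraries and at 38.5 CPM in transformed 7, above the parental range of 30.7 to 37.7 CPM. For Gusb and Manba it was the reverse, with transformed 7 lowest of all 8 libraries (70.9 and 38.2 CPM). Hexa, Gaa, Gusb and Manba had log2 fold changes from -0.13 to 0.06, and each took the other sign in some setting.

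The soluble cofactors had 0 of 3 called in edgeR and in limma-voom. At an unadjusted p under 0.05 edgeR had 2 lower, where 11.6% of all genes were lower at that p. DESeq2 called 1 lower, Psap (5.91% of all genes). Psap, whose saposin products present glycolipids to the hydrolases, was at 231, 227 and 241 CPM in parental and 209, 182, 178, 183 and 182 CPM in transformed libraries. Transformed 5 to 8 lay within 5 CPM of each other and transformed 4 stood between them and the parental cells. The log2 fold change was -0.32 (SE 0.081, edgeR adjusted p = 0.0659), and it passed without transformed 4 (adjusted p = 0.0107) and without transformed 7 (adjusted p = 0.0473). Grn, the precursor of the granulins, was at 239, 179.8 and 193 CPM in parental and 180.0, 116, 109, 169 and 116 CPM in transformed libraries (log2 fold change -0.56, SE 0.19, edgeR adjusted p = 0.133). Without transformed 4 it passed (adjusted p = 0.0327). Npc2, which hands cholesterol to NPC1, had -0.14 (SE 0.079, edgeR adjusted p = 0.335).

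The 4 proton pump members were each highest in transformed 7 of all 8 libraries. Atp6v1a, the catalytic subunit, was at 125, 133 and 143 CPM in parental, at 111, 88.3, 98.4 and 111 CPM in transformed 4, 5, 6 and 8, and at 181 CPM in transformed 7. In Atp6v1a 4 transformed libraries thus lay below the parental range and 1 above it. Atp6v0d1 had the same pattern (120.5 to 125 CPM in parental, 90.4 to 109.8 CPM in transformed 4, 5, 6 and 8, 133 CPM in transformed 7), as did Atp6v1b2 (132 to 141, 115 to 129.9 and 147 CPM). Atp6v1h, a regulatory subunit, was at 48.8 to 56.7 CPM in parental and 55.7 to 77.9 CPM in transformed libraries, with 4 of 5 transformed above the parental range. The log2 fold changes were -0.18 (SE 0.21), -0.22 (SE 0.13), -0.092 (SE 0.092) and 0.31 (SE 0.13), and edgeR, DESeq2 and limma-voom called 0. At an unadjusted p under 0.05 edgeR had 1 higher, Atp6v1h, where 10.6% of all genes were higher at that p. Without transformed 7, Atp6v1a and Atp6v0d1 were called lower (edgeR adjusted p = 0.0459 and 0.0472).

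With the other pump genes there were 18 tested subunits and accessory proteins, and in transformed 7 9 of them were highest and 5 lowest (Atp6v0a2, Tcirg1, Atp6v0c, Atp6v1f and Atp6v1g2). Over all genes tested 26.7% were highest in that library and 27.0% lowest. Among the other genes Atp6v0a1 was at 149 CPM in transformed 7 (62.6 to 88.5 CPM in parental), Atp6v1g1 at 123 CPM (58.0 to 66.9 CPM) and Atp6ap2 at 119 CPM (88.9 to 91.9 CPM). Tcirg1, the alternative a subunit of osteoclasts and immune cells, was among the 5. It fell from 148 ± 2.60 CPM in parental cells (SD, n = 3) to 76.0 ± 19.7 CPM (SD, n = 5), with its lowest value, 46.8 CPM, in transformed 7 (log2 fold change -0.96, SE 0.20, edgeR adjusted p = 0.0419). Tcirg1 lies on chromosome 19, like Lipa, and 14.9% of the 511 tested genes there were called lower, against 2.10% of all genes tested. The plot of pump subunits by library shows both directions. With 1 library the level of transformed 7 has no replicate, and that library was the shallowest and the highest in summed macrophage markers, whose part was not tested.

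**Figure D2:**
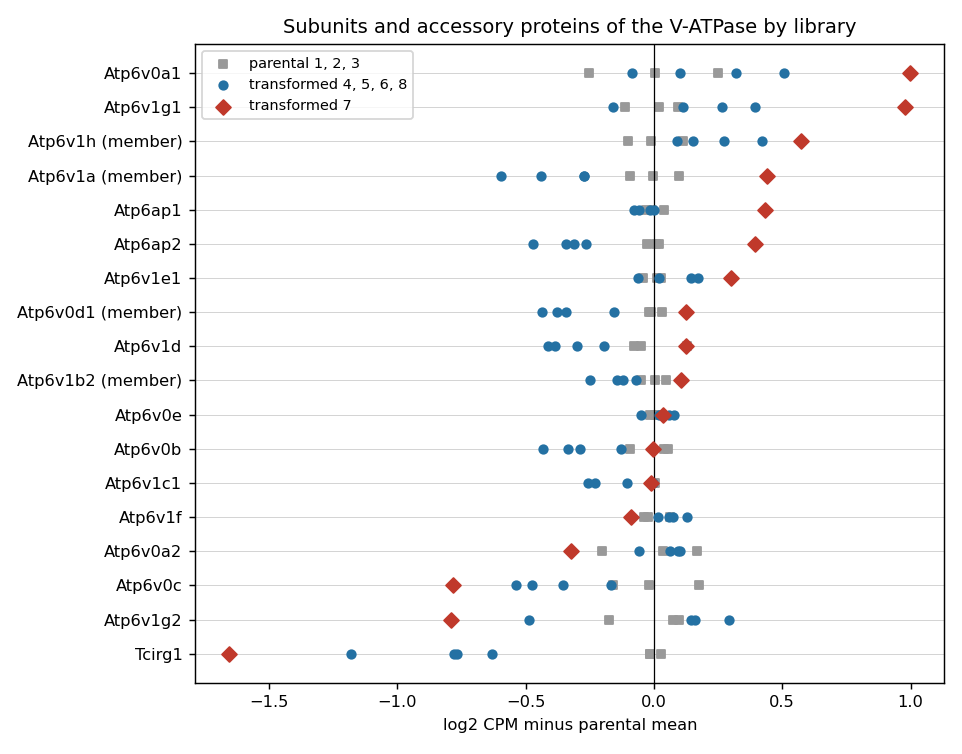
Log2 CPM minus the parental mean (horizontal axis) of 18 V-ATPase subunits and accessory proteins in each library, with parental libraries as grey squares, transformed 4, 5, 6 and 8 as blue circles and transformed 7 as red diamonds. Transformed 7 is at 0.9995 for Atp6v0a1 and at -1.66 for Tcirg1.

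Across all 30 tested members the transformed libraries were not alike. The median log2 difference of a library from the parental mean was -0.32 in transformed 5, -0.35 in transformed 6, -0.26 in transformed 8, -0.15 in transformed 4 and -0.01 in transformed 7, against -0.03 to 0.01 in the parental libraries. Over all genes tested these medians lay between -0.01 and 0.01 in every library. Transformed 5, 6 and 8 were close to each other: the median absolute log2 difference over the members was 0.087, 0.10 and 0.059 for their 3 pairs, and from 0.22 to 0.39 for the 7 pairs with transformed 4 or 7. Over all genes tested the same pairs were at 0.13 to 0.15 and at 0.26 to 0.41. Transformed 7 was above all of transformed 5, 6 and 8 for 23 of 30 members (76.7%), where this held for 39.4% of all genes tested, and below all of them for 5 (16.7%, against 38.5%). Transformed 4 was above those 3 for 18 members (60.0%, against 38.0% of all genes) and within the parental range for 10 (33.3%, against 32.2%). Transformed 4 was also the library with the highest summed mast cell markers, whose part was not tested. These comparisons of libraries were chosen after the values were seen and carry no test.

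**Figure D3:**
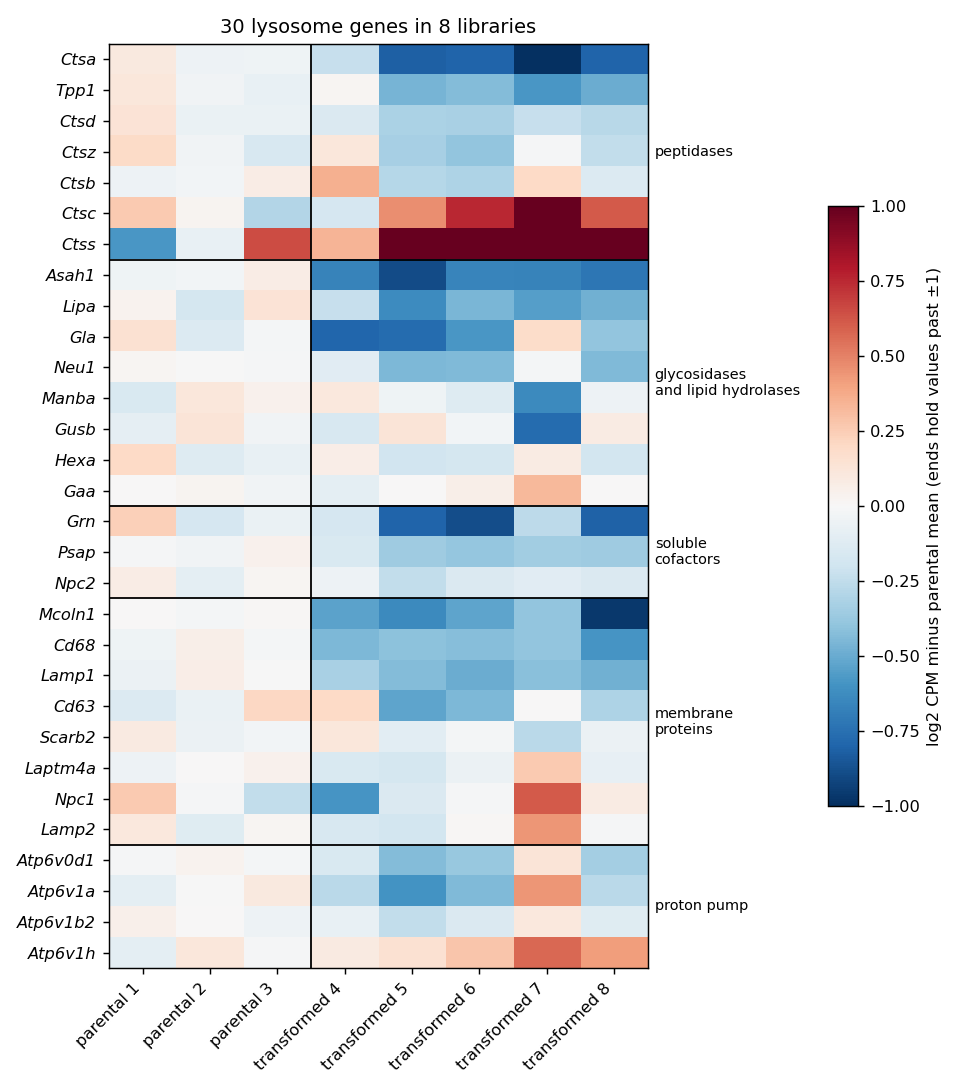
Log2 CPM minus the parental mean (colour; values past ±1 take the end colour) of the 30 tested members (rows, by role) in 3 parental and 5 transformed libraries (columns). Transformed 5, 6 and 8 share most colours, transformed 7 is red for all 4 proton pump members and for Lamp2 and Npc1, and Ctss reaches 4.83 in transformed 7.

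The levels of different genes were compared only per length, as parental mean CPM per kilobase of merged exons. On that scale Ctsz, a carboxypeptidase, was the most abundant member at 115, followed by Lamp1 at 97.7, Psap at 84.9, Atp6v0d1 at 68.2 and Grn at 58.7. Ctsz itself was at 188, 161 and 147 CPM in parental and 178, 131, 125, 163 and 139 CPM in transformed libraries, so its groups overlapped. At the other end stood Scarb2 at 4.78, Ctss at 1.07, and Ctsl and Ctsh at 0.00822 and 0.00745, which are levels of a few counts. In transformed 5 to 8 Ctss was at 10.5 to 29.5 per kilobase, above Lipa and Mcoln1 in each of these libraries, and in transformed 4 it was at 1.28, below Lipa (6.60) and Mcoln1 (7.06).

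Position on the chromosome was compared because 3 of the 4 called members lie on chromosome 8. All 5 members there had negative log2 fold changes, and 3 of the 5 were called lower, where 2.81% of the 961 tested genes of chromosome 8 were. The median of that chromosome was -0.089, so Asah1, Mcoln1 and Lamp1 lay 0.63, 0.51 and 0.34 below it. Within 1000000 bases on either side of Asah1 13 other genes were tested, with a median of -0.05, and 0 of them were lower than Asah1. The same windows held 33 genes with a median of -0.11 around Mcoln1 and 27 with -0.12 around Lamp1, of which 4 and 7 were lower than the member. Around Cd68 81 genes had a median of -0.0035 and 7 were lower. Off chromosome 8, 1 of 25 tested members was called lower (4.00%, against 2.10% of all genes tested). Of these 25 members 19 were negative (76.0%, against 47.7% of all genes tested), with a median of -0.14. On chromosome 7, whose median was 0.17, Ctsd and Tpp1 were negative and Ctsc lay 0.45 above the median.

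**Figure D4:**
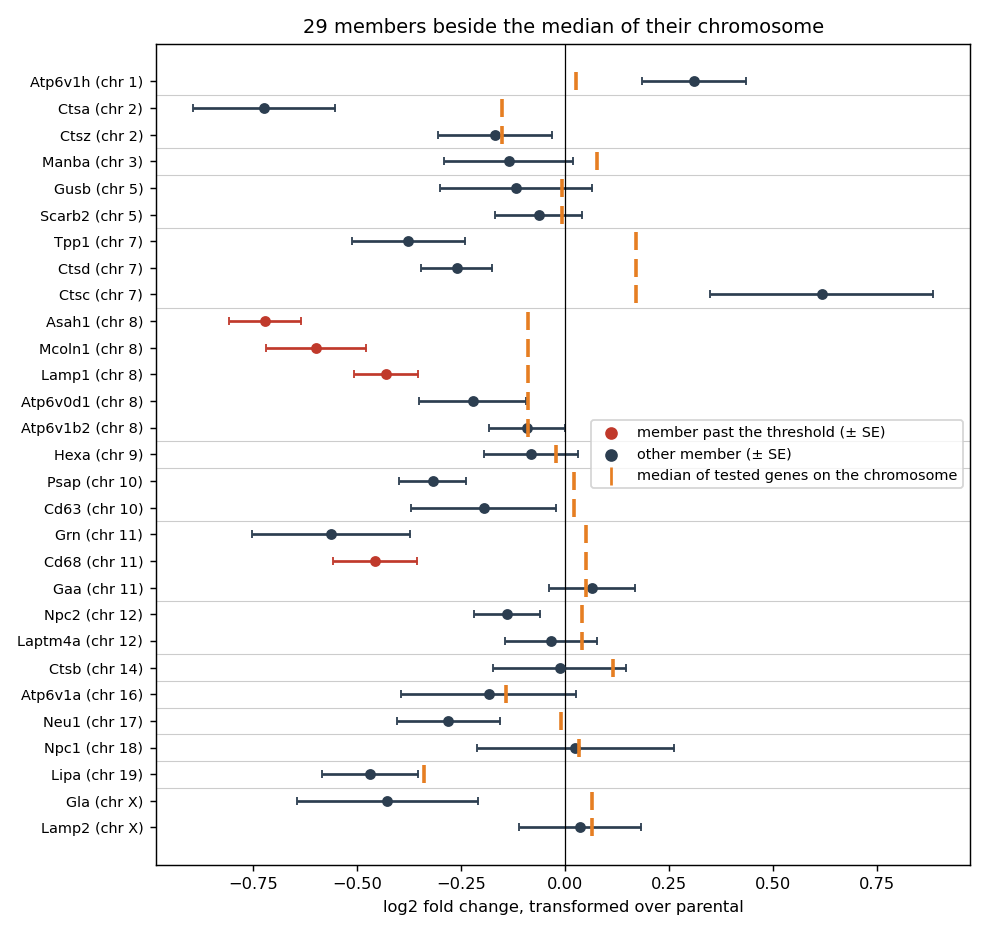
Log2 fold change, transformed over parental (horizontal axis; points with SE bars), of 29 tested members grouped by chromosome, with an orange tick at the median of all tested genes on that chromosome and called members in red. Ctss, at 3.64, is left out for scale. Lipa sits 0.13 below the tick of chromosome 19 (-0.34), and the 3 called members of chromosome 8 lie farther from theirs (-0.089).

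Members whose promoter held TCACGTG were set beside the others as a description. Of the 8 with it, 7 had negative log2 fold changes, 2 were called lower (Lamp1 and Mcoln1) and the median was -0.34, with Gaa the exception at 0.06. Of 17 tested members with a promoter entry and no match, 14 were negative, 1 was called (Cd68) and the median was -0.14. Of all genes tested 47.7% were negative and 2.10% were called lower. Other factors that bind E-boxes were not looked at. Of the TFEB family, Tfeb, Mitf and Tfe3 missed the threshold: Tfeb averaged 17.2 ± 0.900 CPM over the parental and 14.3 ± 3.35 CPM over the transformed libraries (log2 fold change -0.27, SE 0.20, edgeR adjusted p = 0.469), Mitf 36.5 ± 3.17 and 28.3 ± 9.43 CPM (-0.37, SE 0.23, adjusted p = 0.386) and Tfe3 65.0 ± 3.40 and 66.8 ± 5.33 CPM (0.04, SE 0.092, adjusted p = 0.835; SD, n = 3 and 5). Tfeb was lowest in transformed 7, at 8.45 CPM. Tfec stayed at or below 0.464 CPM. Their activity depends on entry into the nucleus, which transcript counts do not measure.

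Outside the 32 members, 103 of 116 other lysosome genes were tested, and 7 fell (6.80%, against 2.10% of all genes) while 0 rose. At an unadjusted p under 0.05 edgeR had 24 lower and 2 higher (11.6% and 10.6% of all genes). DESeq2 called 14 lower and 2 higher (5.91% and 4.72% of all genes), and limma-voom called 9 lower and 0 higher (2.42% and 0.902%). The median log2 fold change was -0.088. Of the 7 called genes Dpp7, a dipeptidyl peptidase, had the most negative log2 fold change. It fell from 23.7 ± 1.92 to 11.0 ± 2.995 CPM (SD, n = 3 and 5; log2 fold change -1.10, SE 0.21, edgeR adjusted p = 0.0331). Arsb, an arylsulfatase outside the rule for named genes and chosen after its values were seen, had -1.33 and was not called (SE 0.38, edgeR adjusted p = 0.0880). Among other hydrolases Pla2g15, a lysosomal phospholipase, fell from 26.2 ± 0.532 to 15.9 ± 2.57 CPM, Dnase2a, the acid DNase, from 77.4 ± 6.44 to 47.6 ± 9.45 CPM, and Ppt1, which removes palmitate from proteins, from 64.1 ± 2.34 to 45.3 ± 4.31 CPM (SD, n = 3 and 5; edgeR adjusted p = 0.0334, 0.0469 and 0.0368). Pla2g15 and Dnase2a are on chromosome 8 too. Over members and other genes together, 5 of 13 tested lysosome genes of chromosome 8 and 6 of 120 elsewhere were called lower.

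The cystine exporter Ctns fell from 28.0 ± 3.27 to 17.0 ± 2.07 CPM (edgeR adjusted p = 0.0273). Lamtor4, a subunit of the complex that holds mTORC1 regulators on the lysosome, fell from 54.0 ± 2.87 to 33.99 ± 3.66 CPM (edgeR adjusted p = 0.0236; SD, n = 3 and 5). The chloride transporter Clcn7 (log2 fold change -0.45, SE 0.10, adjusted p = 0.0503) and the membrane protein Glmp (-0.49, SE 0.11, adjusted p = 0.0544) missed the threshold, with all 5 transformed libraries below the parental ones. In the pump list Atp6v0c (-0.46, adjusted p = 0.120) and Atp6v0b (-0.23, adjusted p = 0.255) came after Tcirg1. Among tethering and fusion genes 0 of 13 were called in edgeR and limma-voom, 1 in DESeq2 and 3 at an unadjusted p under 0.05. At that p 11.6% of all genes were lower and 10.6% higher in edgeR, and DESeq2 called 5.91% of all genes lower and 4.72% higher. The smallest p among the tethering and fusion genes belonged to Vps18 (-0.61), Vps11 (-0.38) and Vps39 (-0.25). Among genes that sort enzymes to the lysosome 0 of 11 were called in edgeR, DESeq2 and limma-voom, with 1 at an unadjusted p under 0.05, and Sort1 (-0.23), Gga2 (0.24) and Ap3d1 (-0.17) came first. In the list of regulators Fnip2 (0.17) and Rragb (0.25) followed Lamtor4. With lane as a covariate edgeR called 0 of these genes (0.445% of all genes lower and 0.0846% higher). At an unadjusted p under 0.05 that fit had 25 lower and 2 higher, where 3373 of all 17733 genes tested passed in either direction. Without transformed 4 edgeR called 20 lower and 4 higher (9.26% and 6.25% of all genes), and without transformed 7 13 lower and 1 higher (4.76% and 2.87%). Without parental 1, 2 or 3, or transformed 6 or 8, it called 0, and without transformed 5 it called 1.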

How the data were processed

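Per the labels' protocols, polyA RNA from Trizol extracts went into Illumina TruSeq libraries. The authors deposited whole-number read counts by Ensembl gene ID, with 0 columns outside the 8 libraries. Tools and builds in the submitters' processing notes are STAR 2.5.3a, featureCounts 1.5.3, mm10 and GRCm38.p5; the strand setting and annotation release are not given. Symbols, positions and merged exon lengths came from GENCODE M21 (GRCm38), and 105 genes without a match held 0.0212% of counts. Tests used edgeR 4.0.16 under R 4.3.3: low counts removed by filterByExpr, TMM factors, a 2-sided quasi-likelihood F test with robust fitting, and a threshold of 0.05 on p-values adjusted by Benjamini-Hochberg over 17733 genes. The SE was taken from the log2 fold change and its F statistic, and log2 CPM used a prior count of 2. Alternatives were DESeq2 1.42.0, limma-voom (limma 3.58.1), other factors and filters, lane, single lanes and leaving out libraries. The functions were tested on simulated counts. The members and lists were chosen with earlier results of these data known. Named were all members, called genes and the 3 smallest p of each other list, the MiT/TFE factors and U2af1; Atp6v0a1, Atp6v1g1 and Atp6ap2 were chosen after their values were seen. Library pairs had a chi-square per degree of freedom of at least 18.0 (genes with 50 or more counts in the pair), so no libraries were merged. Where exons of another gene overlap a member, as in Lamp1 and Ctsa on the opposite strand, reads may be shared.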

Additional observations from a re-analysis of the deposited data

Results flagged for a closer look

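In 6 of the 30 tested members 1 transformed library stood apart from the other 4, by Dixon's ratio of the gap to the nearest library over the range of the 5 (critical value 0.71). Chance flags about 1 in 20 groups, but the share flagged over all genes tested was not computed. Of all genes tested 26.7% were highest and 27.0% lowest in transformed 7. The number of flags is therefore not read as a result about the members. Transformed 7 was high for Lamp2 (213 CPM, ratio 0.729), Atp6v1a (181 CPM, ratio 0.76) and Laptm4a (94.7 CPM, ratio 0.76). Transformed 4 was high, toward the parental level, for Psap (209 CPM, ratio 0.846) and Tpp1 (158 CPM, ratio 0.795). Transformed 5 was low for Asah1 (38.3 CPM, ratio 0.72), and without it Asah1 was still called lower (edgeR adjusted p = 0.0299).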

How the results depend on the processing

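edgeR called 4 members lower and 0 higher, 7 other lysosome genes lower and 0 higher, and 372 genes lower and 161 higher in all. Given in that order, the calls were 7, 1, 14, 2, 1009 and 806 with DESeq2. They were 12, 1, 24, 3, 1883 and 1682 within lane 6, which held neither transformed 4 nor transformed 7. They were 17, 3, 35, 8, 2804 and 2238 without transformed 4 and 7 together, a setting added after the data were seen. With lane as a covariate they were 1, 0, 0, 0, 79 and 15. Within lane 7, with 1 parental library, they were 0 throughout, with 507 genes at an unadjusted p under 0.05, among them 1 member lower and 0 higher. Leaving out 1 library gave 0 to 10 members lower, 0 to 2 higher, 0 to 20 other lysosome genes lower, 0 to 4 higher, and 21 to 1628 genes lower and 3 to 1100 higher in all. The member counts were 10 lower without transformed 4 or 7, 1 without parental 1 or transformed 5, 6 or 8, and 0 without parental 2 or 3, where 10 were lower at an unadjusted p under 0.05. The median log2 fold change of the members was -0.23 with lane as a covariate, -0.31 within lane 6, -0.11 within lane 7 and -0.32 without transformed 4 and 7, and -0.23 to -0.13 leaving out 1 library. Other factors, filters and limma-voom gave 4 or 5 members lower. Of 540 single-member values over 18 alternatives, 442 kept their direction and their side of the threshold, 28 lost a call, 45 gained one and 25, in 10 members, changed sign. Signs changed within lane 6 for Lamp2 (-0.14), Gusb (0.18), Npc1 (-0.042) and Manba (0.017), within lane 7 for Ctsb (0.13), Hexa (0.12), Cd63 (0.0083), Scarb2 (0.0049) and Laptm4a (0.019), in limma-voom for Npc1 (-0.023), and without transformed 4 and 7 for Lamp2 (-0.061), Gusb (0.060) and Npc1 (-0.038). Leaving out 1 library gave ranges across 0 for Lamp2 (-0.085 to 0.097), Ctsb (-0.12 to 0.059), Hexa (-0.14 to 0.031), Gaa (-0.0083 to 0.10), Gusb (-0.19 to 0.0072), Npc1 (-0.16 to 0.17) and Laptm4a (-0.12 to 0.0012). The cause of these changes was not tested. No paired analysis was possible because the groups share no replicate numbers. Depth limits Ctsh and Ctsl, with at most 6 counts in a library.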
